A study of Glycine max with 4 samples.

Results

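Cotyledons of soybean seedlings were compared with cotyledons of embryos in the middle of seed filling, the same organ before and after the dry seed. Of the 66210 gene models counted, 31753 had at least 1 scaled CPM in either library and entered the comparison. Scaled CPM is the count per 1000000 of a library size that was adjusted for composition by the trimmed mean of M-values (TMM) over all 4 libraries of the series. The seedling cotyledons came from plants sown on soil and were collected 6 days after imbibition, the uptake of water that starts germination. The mid-maturation cotyledons, stage B1, were freed of seed coat and axis, were fully green, and weighed 150 to 250 mg a pair. Both came from the cultivar Williams 82, whose seed-bearing plants grew in a greenhouse. The other 2 libraries enter as descriptions: late-maturation cotyledons (stage AA1, fully yellow, 200 to 350 mg a pair) and whole dry seeds (100 to 250 mg), which include a small part of seed coat and axis. The labels give no colour for the seedling cotyledons, and the number of embryos, seeds or seedlings behind a library is not given in the sources used here.

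The cotyledon is the embryonic leaf that makes up most of a soybean seed. During seed filling its cells take up sugars and amino acids from the mother plant and turn them into storage proteins, packed in vacuoles, and oil, packed in oil bodies, while chloroplasts in the green tissue recapture carbon dioxide. After imbibition the direction of traffic turns round: proteases break down the storage proteins, beta-oxidation and the glyoxylate cycle turn oil into sugar, and in soybean the cotyledons are lifted above the soil, turn green and photosynthesise until the leaves take over. A comparison of B1 with seedling cotyledons therefore sets a reserve-building against a reserve-using stage of the same organ.

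The count files pair no gene model with a gene name, and 0 of the 66210 identifiers matched the 59048 genes of the RefSeq table of assembly Glycine_max_v4.0. Gene models are therefore described as groups, by their levels and their places on the chromosomes, and the tissue labels were not checked against marker genes. By a fixed rule, 2 gene models higher and 2 lower in seedling cotyledons are given by identifier. Counts are not divided by transcript length, so a level ranks a gene model by its counts and not by its molecules. The seedling library held 28190429 counts and the B1 library 16120894. Each stage was 1 library, so differences carry no p-value and no check by replicates, and stage and library preparation cannot be told apart. In such bulk samples, fewer cells of a type and less RNA per cell cannot be told apart either.

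More gene models were higher in the seedling cotyledon than lower, while the lower ones carried the larger mass of counts. Being at least 4-fold apart, with counts under 3 set to 3, was met by 10894 of 31753 gene models (34.3%). Of these, 7157 were higher in seedling cotyledons (22.5% of those entered) and 3737 were lower (11.8%). The higher group held 51.2% of the seedling counts (exact binomial 95% interval 51.17% to 51.21%) and 1.30% of the B1 counts (1.296% to 1.307%). The lower group held 3.73% of the seedling counts (3.721% to 3.735%) and 80.9% of the B1 counts (80.91% to 80.95%). These intervals, and all others here, cover counting error only. Since the seedling and B1 levels themselves defined both groups, the direction of these shares was fixed by definition. Totals of library counts in place of TMM gave 15379 higher and 1524 lower, and upper-quartile factors 5593 higher and 5024 lower. Of the 7157 higher gene models, 5593 were called higher under all 5 other scalings tried, and 1524 of the 3737 lower ones were called lower under all 5.

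**Figure D1:**
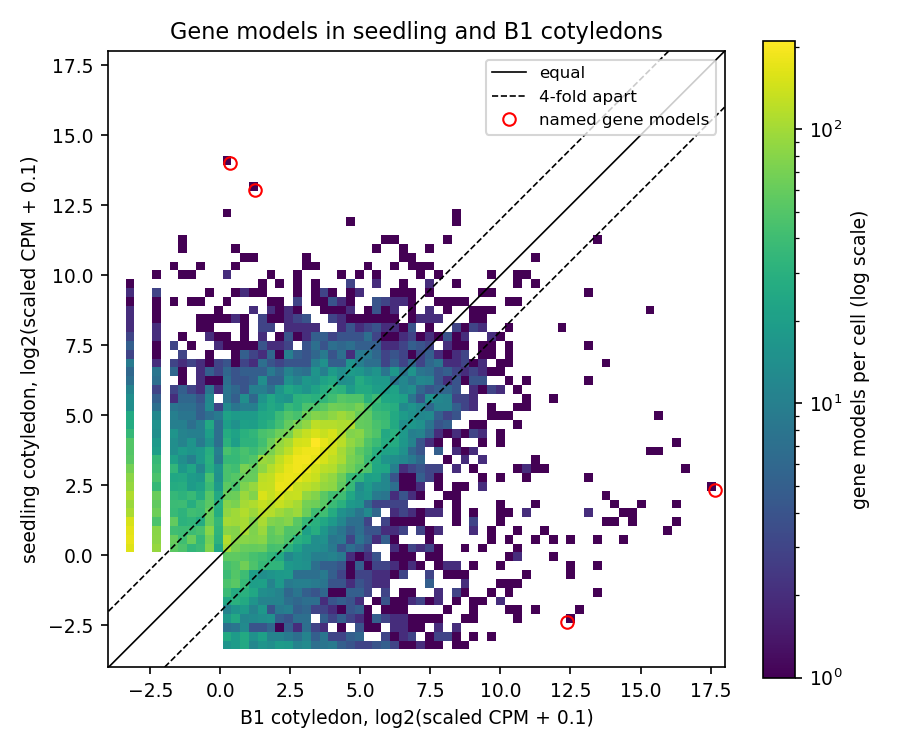
Level of each of 31753 gene models in B1 cotyledons (x axis) and seedling cotyledons (y axis), as log2(scaled CPM + 0.1), with colour for the number of gene models per cell on a log scale. The solid line marks equal levels, the dashed lines a distance of 4-fold, and red circles the 4 gene models given by identifier. Most gene models lie between the dashed lines, and a sparse cloud at the lower right reaches 208000 scaled CPM in B1.

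The spread of differences was wide. The median log2 fold of seedling over B1 was 0.43, with quartiles at -0.85 and 1.82, and with upper-quartile factors the median was -0.037. Within 2-fold of each other were 12514 gene models. At 2-fold or more, 12031 were higher in seedling cotyledons and 7208 lower, and at 10-fold or more 3311 were higher and 1753 lower. At 100-fold or more the order turned, with 298 higher (0.938% of those entered) and 407 lower (1.28%). The floor of 3 counts equals 0.0706 scaled CPM in the seedling library and 0.320 in B1. A gene model at 1 scaled CPM in B1 could thus stand up to 14.2-fold lower in the seedling, while one at 1 scaled CPM in the seedling could stand only 3.12-fold higher than B1. Calls of lower are favoured by this at low levels, and so is the count of those 100-fold lower. The lowest level among the 298 was 32.2 scaled CPM in the seedling, and among the 407 it was 7.16 in B1. Where the higher level was 5 to 10 scaled CPM, 0 were 100-fold higher and 46 lower. From 10 to 50 there were 76 higher and 132 lower, and from 50 to 100, 82 and 54. From 100 to 1000 there were 121 and 108, and at 1000 or more 19 and 67. Close to the call, 541 gene models were 4 to 4.4-fold higher and 593 were 3.6 to 4-fold higher, and 328 were 4 to 4.4-fold lower and 373 were 3.6 to 4-fold lower. At the entry threshold, 454 gene models had their higher level between 1 and 1.1 scaled CPM, and 477 that did not enter had it between 0.9 and 1.

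The 2 cotyledons diverged most in transcripts with many counts. Bands were set by the higher of the 2 levels of each gene model. Between 10 and 50 scaled CPM, the seedling stood at least 4-fold higher for 2637 of 12465 gene models (21.2%) and at least 4-fold lower for 1177 (9.44%). Between 100 and 1000 scaled CPM, 514 of 1367 were higher (37.6%) and 477 were lower (34.9%). At 1000 scaled CPM or more, 37 of 136 were higher (27.2%) and 90 were lower (66.2%), and 5 of the 136 lay within 2-fold. In the band between 5 and 10 scaled CPM, by contrast, 2922 of 6166 gene models were within 2-fold (47.4%). The median log2 fold was 0.48 in the band from 10 to 50, -0.57 from 100 to 1000 and -6.22 at 1000 or more. A band is set by the higher level, so in the top bands a large fold is easier to reach.

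**Figure D2:**
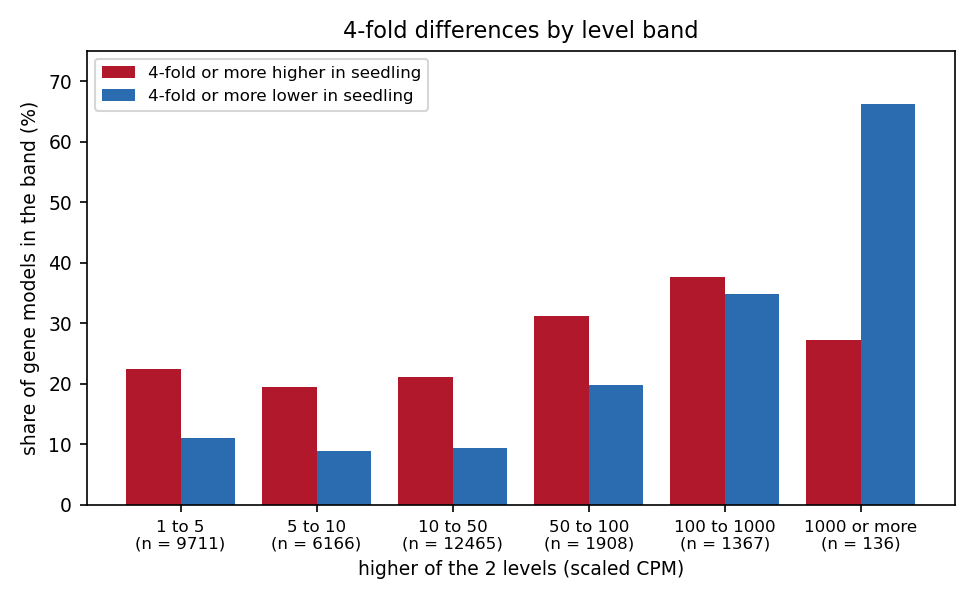
Share of gene models (y axis, %) at least 4-fold higher (red) or at least 4-fold lower (blue) in seedling than in B1 cotyledons, for 6 bands of the higher of the 2 levels in scaled CPM (x axis, with the number of gene models in each band). Higher ones are the more frequent in the 5 bands under 1000 scaled CPM, and lower ones make up 66.2% of the band at 1000 or more.

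The lower group was led by a small set of transcripts that fill the B1 library. In B1, 9 gene models carried 50% of the counts of this group and 173 carried 90%. The 407 gene models at least 100-fold lower held 0.141% of the seedling counts and 68.7% of the B1 counts. Their seedling levels ran to 407 scaled CPM with a median of 0.118, and 77 of them had 0 counts in the seedling library. Their B1 levels ran from 7.16 to 208000 scaled CPM with a median of 64.7. So the group mixes transcripts of modest level with those that dominate the filling cotyledon. A further 1346 gene models were 10 to 100-fold lower, with medians of 0.329 scaled CPM in seedling and 7.26 in B1 cotyledons, and 1984 were 4 to 10-fold lower, with medians of 2.70 and 15.1 in the same order.

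Glyma13g36400, on chromosome 13, was the most counted gene model of B1. It had 211 counts in the seedling library, or 4.96 scaled CPM, and 1947456 counts in B1, or 208000 scaled CPM, which was 12.1% of all B1 counts. The ratio was 41900-fold lower in the seedling (interval 36600 to 48200). Its level was 1563 scaled CPM at AA1 and 201 when dry, so it stood lower at each later stage. Glyma13g23980, on the same chromosome, was the one with the largest fold among the 944 lower gene models that reached 50 scaled CPM in B1. It had 4 counts in the seedling, or 0.0941 scaled CPM, and 49923 in B1, or 5332 scaled CPM, a ratio of 56700-fold lower (22100 to 208000). In AA1 it stood at 259 scaled CPM and in dry seed at 16.6, again a stepwise decline. Choosing an extreme fold favours an overestimate, which the counting interval does not take into account.

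The higher group was spread over many more transcripts. It took 212 gene models to hold 50% of its seedling counts and 2483 to hold 90%. The 298 gene models at least 100-fold higher held 15.2% of the seedling counts and 0.0117% of the B1 counts. Their seedling levels ran from 32.2 to 16326 scaled CPM with a median of 95.2, and their B1 levels ran to 22.7 with a median of 0.214. Of these 298, 89 had 0 counts in B1, and in the whole higher group 1339 of 7157 had 0 counts there. Another 3013 were 10 to 100-fold higher, with medians of 13.9 scaled CPM in seedling and 0.427 in B1 cotyledons, and they held 21.0% of the seedling counts and 0.361% of the B1 counts. The 3846 gene models 4 to 10-fold higher had medians of 7.26 and 1.17 scaled CPM, in the same order. In B1, 2834 of the 7157 stood at or under the floor of 3 counts, so their true distance can be larger than the floored one.

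Glyma08g21410, on chromosome 8, was both the most counted gene model of the seedling library and the one with the largest fold among the 1147 higher gene models that reached 50 scaled CPM in the seedling. It had 694212 counts in the seedling, or 16326 scaled CPM, which was 2.46% of all seedling counts, and 11 counts in B1, or 1.17 scaled CPM. The ratio was 13900-fold higher in the seedling (7770 to 27800). Its level was 16.1 scaled CPM at AA1 and 8.16 when dry, beside medians over all entered gene models of 5.02 at B1, 4.99 at AA1 and 4.29 when dry. Glyma07g01730, on chromosome 7, was the next by level, with 362310 counts in the seedling, or 8521 scaled CPM, and 21 counts in B1, or 2.24 scaled CPM, a ratio of 3800-fold higher (2490 to 6140). Unlike Glyma08g21410 it was lower in AA1 and dry seed than in B1, at 0.0749 scaled CPM at AA1 and 0.386 when dry.

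**Figure D3:**
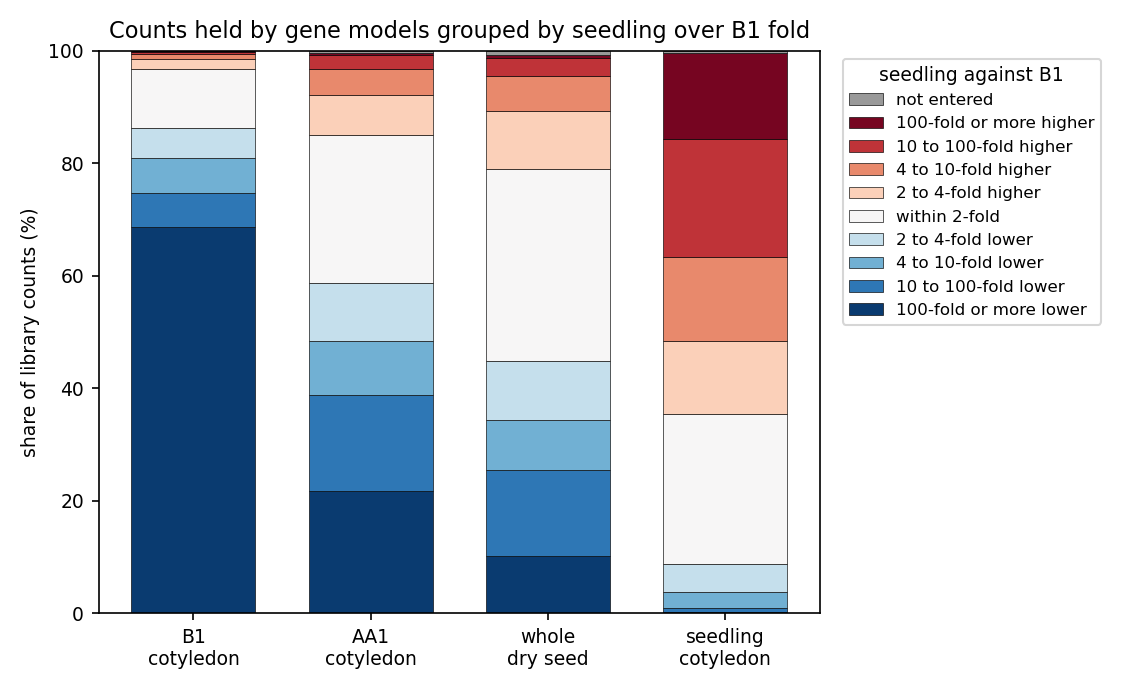
Share of library counts (y axis, %) held by gene models grouped by their fold of seedling over B1, stacked for each of the 4 libraries in the order of development (x axis). The dark blue part, at least 100-fold lower in the seedling, takes 68.7% of counts at B1, 21.7% at AA1, 10.2% when dry and 0.141% in the seedling, and the dark red part, at least 100-fold higher, takes 15.2% of seedling counts and 0.544% or less of each seed library.

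The most counted transcripts were set side by side. The 100 most counted gene models of the seedling and the 100 of B1 had 8 in common. Those 8 had 576 to 2285 scaled CPM in the seedling and 1247 to 10785 in B1. All 8 were lower in the seedling, 6 of them by less than 4-fold. Of the seedling's 100, 86 were at least 4-fold higher than in B1, 39 of them at least 100-fold, and 2 were at least 4-fold lower. Their median level was 887 scaled CPM in the seedling and 25.3 in B1, where 16 were under 1 scaled CPM and 28 at 100 or more. Of B1's 100, 92 were at least 4-fold lower in the seedling, 68 of them at least 100-fold, and 0 were at least 4-fold higher. Their median level was 4.55 scaled CPM in the seedling and 2137 in B1, and 19 of them kept 100 scaled CPM or more in the seedling. Each list was picked for its level in 1 library, so it is favoured there.

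The AA1 and dry-seed levels of a gene model took no part in its call, and these 2 libraries bore on the groups only through the common TMM factors. With TMM from the 2 cotyledon libraries alone, 6461 gene models were higher and 4178 lower. The 407 with the seedling at least 100-fold lower had a median of 64.7 scaled CPM at B1, 7.06 at AA1, 2.49 when dry and 0.118 in the seedling. The whole lower group of 3737 had medians of 13.8, 3.49, 1.93 and 1.01, in the same order. Its share of counts was 80.9% at B1, 48.5% at AA1, 34.4% when dry and 3.73% in the seedling. Both measures stood lower at each later stage. In dry seed, 1206 of the 3737 had at least 10 scaled CPM (32.3%, beside 36.1% of all entered gene models) and 319 at least 100 (8.54%, beside 4.52%). Subgroups differed in their shares. In the class 10 to 100-fold lower, the share of counts was 5.93% at B1, 17.1% at AA1, 15.4% when dry and 0.731% in the seedling, so as a share it was larger in the 2 later seed stages than in B1. The median of this class still fell at each stage, at 7.26, 1.12, 0.558 and 0.329 scaled CPM in the same order. Its highest level was 9898 scaled CPM at B1 and 32172 at AA1, and a share also depends on what else fills the library. The class at least 100-fold lower held 68.7%, 21.7%, 10.2% and 0.141%, a decline at each stage.

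The higher group was low in all 3 seed libraries at its median. Its median was 0.641 scaled CPM at B1, 1.40 at AA1, 0.773 when dry and 11.3 in the seedling. Its share of counts was 1.30%, 7.33%, 9.89% and 51.2%, in the same order. The class at least 100-fold higher had medians of 0.214, 0.562, 0.386 and 95.2. Under 1 scaled CPM in B1, AA1 and dry seed were 2533 of the 7157 gene models (35.4%), and 362 of them had 0 counts in all 3 seed libraries. Another 1585 (22.1%) were under 1 scaled CPM in B1 and reached 1 in AA1 or dry seed, so they were detected in a seed stage before the seedling. Shares of these patterns over all entered gene models were not computed, and a low B1 level is favoured by the call itself. By single library, 42.5% of the higher group had at least 1 scaled CPM in B1, beside 82.9% of all entered gene models. The shares were 54.4% beside 75.7% in AA1 and 46.3% beside 69.2% in dry seed. At 10 scaled CPM or more, 1339 of the 7157 were found in dry seed (18.7%, beside 36.1% of all entered gene models) and 455 in B1 (6.36%, beside 31.9%). Whole dry seeds hold a small part of coat and axis. How far these tissues bear on the dry-seed levels was not tested.

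**Figure D4:**
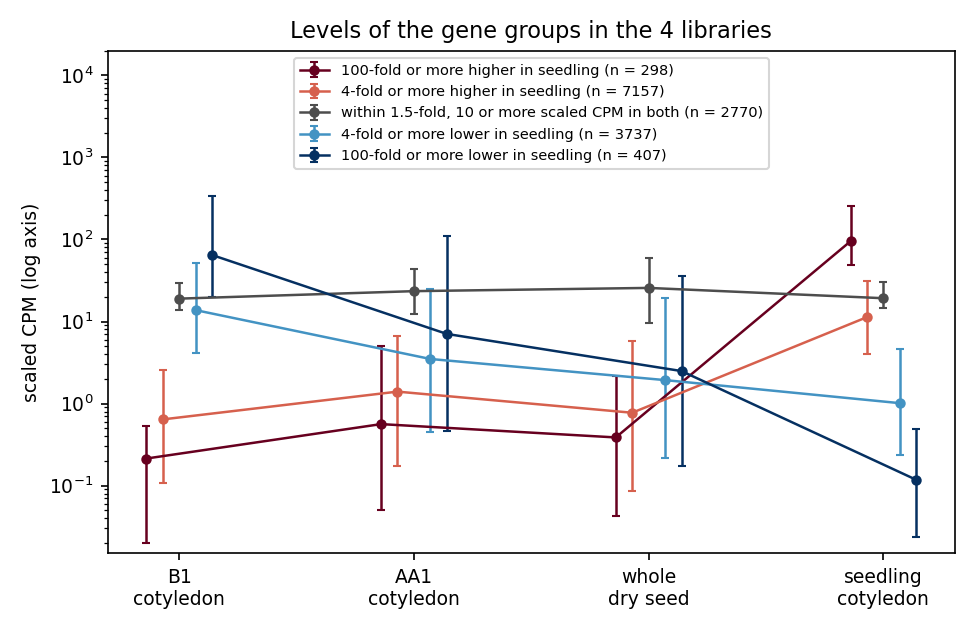
Median level (points) and quartiles (bars) in scaled CPM on a log axis for 5 groups of gene models in the 4 libraries, in the order of development; a quartile at 0 is drawn at 0.02. The 298 gene models at least 100-fold higher have medians under 1 scaled CPM in all 3 seed libraries and 95.2 in seedling cotyledons. The median of the 407 at least 100-fold lower declines from stage to stage, and that of the 2770 steady ones stays between 19.0 and 25.7.

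Each member's AA1 and dry-seed level was then placed on the log2 scale between its B1 and its seedling level, with all 4 libraries held at the B1 floor of 0.320 scaled CPM. Among the lower group, AA1 lay nearer the seedling level, or at or past it, for 2032 of 3737 gene models (54.4%), and dry seed for 2416 (64.7%). With entry at 5 scaled CPM these were 1268 of 2669 (47.5%) and 1601 (59.985%), so for AA1 the majority was lost. Of the 407 at least 100-fold lower, AA1 lay on the seedling side for 191 (46.9%) and dry seed for 248 (60.9%). Of the 3471 that were 2 to 4-fold lower and so not called, it was 1755 (50.6%) for AA1 and 1955 (56.3%) for dry seed. For 1598 of the whole lower group of 3737 (42.8%) the dry seed was at or past the seedling level, ties at the floor included. A further 548 (14.7%) had a dry-seed level above that of B1. Among the higher group AA1 lay nearer the seedling level or past it for 2166 of 7157 (30.3%) and dry seed for 1901 (26.6%). Of the 4874 that were 2 to 4-fold higher, it was 2243 (46.0%) for AA1 and 2269 (46.6%) for dry seed. Dry seed lay below B1 for 1976 of the higher group (27.6%), and past the seedling level for 876 (12.2%). The B1 and seedling levels that form the ends of this scale also chose the members, so the places are a description. With totals of counts in place of TMM, dry seed lay on the seedling side for 6240 of 15379 higher (40.6%) and 950 of 1524 lower gene models (62.3%).

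**Figure D5:**
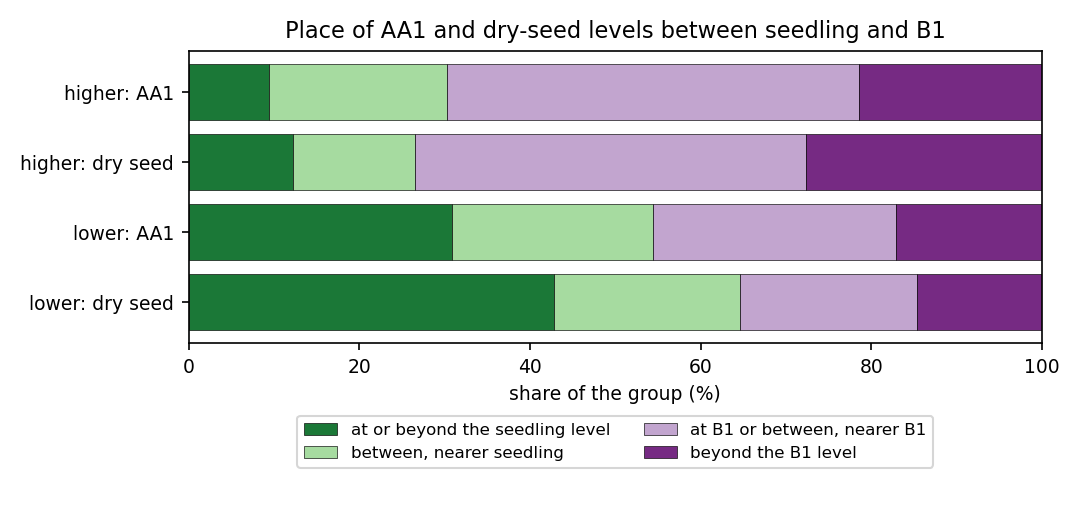
Share of the 7157 higher and 3737 lower gene models (x axis, %) whose AA1 or dry-seed level lies at or beyond the seedling level, between and nearer the seedling level, at B1 or between and nearer the B1 level, or beyond the B1 level, on the log2 scale. In the lower group 64.7% of dry-seed levels fall on the seedling side, against 26.6% in the higher group.

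Dry seed against AA1 is the only other pair of libraries that shares none with the comparison of seedling and B1. Of the 26397 gene models in that pair, a 4-fold distance put 1574 above AA1 in dry seed (5.96%) and 2575 below (9.75%). Of the 2529 seedling-lower gene models that entered it, 85 were higher in dry seed (3.36%) and 475 lower (18.8%). Of the 282 at least 100-fold lower in the seedling that entered it, 121 were lower in dry seed than in AA1 (42.9%) and 9 were higher (3.19%), with a median log2 ratio of -1.64. Of the 139 at least 100-fold higher in the seedling that entered it, 45 were lower in dry seed than in AA1 (32.4%) and 13 were higher (9.35%), with a median log2 ratio of -0.80. Of the 4172 seedling-higher gene models that entered it, 312 were higher in dry seed (7.48%) and 761 lower (18.2%), with a median log2 ratio of -0.29. Being lower in dry seed was thus met by 18.8% of the seedling-lower and 18.2% of the seedling-higher gene models, beside 9.75% over all gene models of this pair. Their levels differ from those of all gene models, the scaling is common to the 4 libraries, and no test applies.

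A set of transcripts stood at like levels in the 2 cotyledons. With at least 10 scaled CPM in both, 6850 gene models remained, and 2770 of them (40.4%) were within 1.5-fold. Their median was 19.2 scaled CPM in the seedling and 19.0 in B1, and 60 of them reached 100 scaled CPM in the seedling and 66 in B1. They held 11.8% of the seedling counts and 4.53% of the B1 counts. Their median was 23.5 scaled CPM at AA1 and 25.7 when dry, and 2 of them had 0 counts at AA1 and 12 when dry. Of the 2725 that entered dry seed against AA1, 40 stood 4-fold or more above AA1 in dry seed (1.47%) and 145 below (5.32%). Like levels in the 2 cotyledons did not always extend to the stages between them. Of the 2770, 233 (8.41%) stood at least 4-fold below both cotyledons in AA1 and 390 (14.1%) in dry seed, while 98 (3.54%) stood at least 4-fold above both in AA1 and 320 (11.6%) in dry seed. Over all 31753 entered gene models, the shares below both cotyledons were 6.73% in AA1 and 11.8% in dry seed, and those above both 2.54% and 6.87%. Over the 6850 with at least 10 scaled CPM in both cotyledons, they were 8.91% and 14.9% below and 2.39% and 7.504% above. Standing below both cotyledons was thus about as frequent among the 2770 as among the 6850, and so is no trait of the steady set. Standing above both was more frequent among the 2770, with no test. In AA1 and dry seed alike, 207 of the 2770 (7.47%) were below both cotyledons and 77 (2.78%) above both, beside 1868 (5.88%) and 573 (1.80%) of all entered gene models. Of the 6850 with at least 10 scaled CPM in both cotyledons, 556 (8.12%) were below and 126 (1.84%) above.

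Position on the chromosomes was read from the identifiers, which number the chromosome and count upwards along it. The higher share varied little among the 20 chromosomes, between 20.5% on chromosome 20 and 24.4% on chromosome 17, and the lower share between 10.4% on chromosome 1 and 13.8% on chromosome 3. The counts were less even. Lower gene models of chromosome 13 held 17.2% of all B1 counts, those of chromosome 10 held 11.8%, and those of chromosome 18 held 0.520%. Higher gene models held between 1.54% of the seedling counts on chromosome 20 and 5.57% on chromosome 8. The most counted gene model of each library, both named above, lies on the chromosome with the highest of these shares.

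Calls of gene models next to each other on a chromosome were counted, with no test. In 18504 adjacent pairs both gene models had entered. The neighbour of a higher gene model was itself higher in 27.2% of cases, against 21.5% over all these pairs. The neighbour of a lower gene model was lower in 18.2% of cases, against 11.9% over all pairs. Neighbours of the opposite direction made up 10.04% beside a higher gene model, against 11.9% over all pairs, and 18.2% beside a lower one, against 21.5%. Unbroken runs of 3 or more gene models comprised 484 of the higher group in 148 runs and 153 of the lower group in 47 runs. The longest run of the higher group had 6 members on chromosome 13, with 1.86 to 120 scaled CPM in the seedling and 0 to 8.33 in B1. The longest of the lower group had 4 members, and 12 such runs were found. The run with the highest B1 level was on chromosome 10, with 0.376 to 106 scaled CPM in the seedling and 2.14 to 15294 in B1. Near-identical neighbouring copies can share or split reads, depending on how reads with several places were counted, and their part in these shares was not tested.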

How the data were processed

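Per the labels' protocols, DNase-treated total RNA went through 2 poly-A selections, and 100 ng of it was broken up and reverse transcribed from random primers. Inserts near 200 bp received 15 PCR cycles and single reads of 76 bp. The protocol names no strand mark and no molecular identifier, so antisense overlaps cannot be separated and PCR copies count as reads. Per the file headers, the deposited values are raw counts of mapped reads per gene model. The submitters' processing notes name Bowtie. Genome build, counting program and the handling of reads with several places are not stated in the sources at hand, so near-identical copies are uncertain.

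TMM factors came from edgeR 4.0.16 in R 4.3.3 over all libraries (B1 0.581, AA1 1.05, dry seed 1.08, seedling 1.51). A gene model entered with 1 scaled CPM in either of the 2 cotyledons. Folds used a floor of 3 counts, and 4-fold was the rule of size. Folds of single gene models use unfloored counts. Ratios and shares have exact 95% binomial intervals (scipy 1.17.1). Totals were 16120894 to 38011608 counts a library. For dips and places, all libraries were held at the B1 floor. Named were, in each direction, the largest fold among gene models that reached 50 scaled CPM and the highest level, or the next by level where these coincide. The comparison, groups and rules were chosen with earlier results of these data known. Gene lists by product keyword were not run, since no identifier matched. The fold rule and the interval of the ratio were tested on simulated data. The simulated libraries shared a profile with few changed gene models, so scaling was not tested, nor were places, dips and neighbours. DESeq2 1.42.0 size factors served as an alternative scaling.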

Additional observations from a re-analysis of the deposited data

How the results depend on the processing

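Of 88 values recomputed under other settings, 46 stayed close to the reported ones, 41 moved and 1 turned its sign. A count was taken as close when within 1.5-fold of the reported one, which is a wide limit. The 5024 lower gene models with upper-quartile factors, beside 3737 as reported, are among the close ones. The share higher counted as close only inside its counting interval, a narrow limit, and the median log2 fold was judged by its difference from the reported one. Counts at 2-fold and 10-fold were set beside the 4-fold counts, from which they differ by definition. The tally thus mixes unlike limits and is no measure of stability. Under the other settings, with 4-fold as the rule or with 2 or 10-fold under TMM, the lower group was never the larger one. Plain library totals moved most: 15379 gene models were higher and 1524 lower (90.98% higher), the median log2 fold was 1.89, 1486 gene models lay within 1.5-fold, AA1 lay on the seedling side for 6599 higher (42.9%) and 795 lower ones (52.2%), dry seed for 6240 (40.6%) and 950 (62.3%), and adjacent same-direction pairs numbered 4551 and 109. Upper-quartile factors gave a median log2 fold of -0.037, a share of 52.7% higher, and 684 and 648 adjacent pairs. The share higher and the median log2 fold were 59.3% and 0.20 with DESeq2 size factors, 60.7% and 0.23 with TMM from 2 libraries, and 61.6% and 0.29 with totals that leave out the 100 most counted gene models of any library. Entry at 10 scaled CPM gave 3784 higher, 2121 lower (64.1%). Entry at 5 scaled CPM put AA1 on the seedling side for 1268 of 2669 lower gene models (47.5%, against 54.4% as reported) and dry seed for 1601 (59.985%), with 528 higher and 215 lower adjacent pairs. Without a filter beyond 3 counts the share was 61.8% and the median 0.19. A floor of 10 counts gave 58.4%, a median of 0.32 and 576 adjacent higher pairs. A pseudocount of 1 scaled CPM gave 4705 higher and 2319 lower (66.98%). At 2-fold 12031 were higher and 7208 lower (62.5%), at 10-fold 3311 and 1753. Requiring the counting interval to clear 4-fold left 4863 of 7157 higher (67.9%) and 2781 of 3737 lower gene models (74.4%). The share higher was then 63.6%. Fewer gene models enter under the stricter filters; other causes were not tested. No paired analysis was possible because each stage was 1 library. Depth limits B1 most, where 3 counts equal 0.320 scaled CPM.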
